A study of Mus musculus with 4 samples.

Results

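The genes that make, export, destroy or sense sphingosine-1-phosphate were followed in macrophages and osteoclasts of LysM-St18flox and wild-type mice. These 10 genes were Sphk1 and Sphk2 (the kinases), Spns2 (an exporter), Sgpl1, Sgpp1 and Sgpp2 (the breakdown enzymes), and the receptors S1pr1, S1pr2, S1pr3 and S1pr4. The members were chosen by name, as the probes whose RefSeq accession maps to these 10 of the 22899 genes named on the arrays, and they were read by 11 of 32972 named probes, with 2 probes for Sgpl1 and 1 for each of the others.

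The data came from 4 one-colour Agilent microarrays on 1 slide, with 1 array for each of 4 groups: LysM-St18flox osteoclasts, LysM-St18flox macrophages, wild-type osteoclasts and wild-type macrophages. All were grown from bone marrow in RPMI medium with 10% serum. Macrophages came from 4 days of culture with M-CSF at 25 ng/ml, a growth factor for this lineage. Osteoclasts resorb bone and have many nuclei. They were obtained by a further 3 days with RANKL at 50 ng/ml, the cytokine that induces them, while M-CSF stayed at 25 ng/ml, so RANKL and time in culture changed together. LysM-St18flox by convention denotes mice with loxP-flanked St18, a zinc finger transcription factor gene, and Cre expressed from the lysozyme M locus, which is active in myeloid cells. The sources used here do not give the age, sex, strain or number of mice, or whether the wild-type mice carried Cre or the floxed allele.

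Sphingosine-1-phosphate is a lipid messenger made inside cells when a sphingosine kinase phosphorylates sphingosine, which ceramidases release from ceramide. Spns2 carries it out of the cell, where it acts on a family of G protein-coupled receptors. Phosphatases return it to sphingosine, and the lyase Sgpl1 cleaves it irreversibly. In mouse bone, S1pr1 is known to guide osteoclast precursors towards the lipid in blood and S1pr2 to repel them from it, and osteoclasts are known to release the lipid to bone-forming cells.

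Because Sphk1 and Spns2 had the largest differences and similar profiles (below), windows from 250 bases before to 50 bases after their annotated starts are shown, from RefSeq on build GRCm38.p6. Windows were on hand for 9 of the 10 members, 14 windows in all. Spns2 has 1 window, on the minus strand at chr11:72474978-72475277. Sphk1 has 5, on the plus strand, of which the 2 shown are at chr11:116531587-116531886 and chr11:116532194-116532493. The labels upstream and downstream refer to these 2 only. A Sphk1 window that is not shown lies further upstream, at chr11:116530850-116531149. They are written 5′ to 3′ along the gene, with matches to 5 motifs of factors known in osteoclast or St18 biology in capitals. The motifs, searched on both strands, were TGANTCA (AP-1), GGAAA (NFAT), CACGTG (E-box), GAGGAA (PU.1) and AAAGTT (the MYT1 family, to which St18 belongs).
Spns2: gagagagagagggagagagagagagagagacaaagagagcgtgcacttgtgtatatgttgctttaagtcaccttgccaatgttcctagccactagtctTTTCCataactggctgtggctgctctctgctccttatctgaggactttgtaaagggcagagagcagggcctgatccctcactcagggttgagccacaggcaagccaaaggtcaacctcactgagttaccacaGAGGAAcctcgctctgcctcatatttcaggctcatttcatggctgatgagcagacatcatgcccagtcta
Sphk1, upstream start: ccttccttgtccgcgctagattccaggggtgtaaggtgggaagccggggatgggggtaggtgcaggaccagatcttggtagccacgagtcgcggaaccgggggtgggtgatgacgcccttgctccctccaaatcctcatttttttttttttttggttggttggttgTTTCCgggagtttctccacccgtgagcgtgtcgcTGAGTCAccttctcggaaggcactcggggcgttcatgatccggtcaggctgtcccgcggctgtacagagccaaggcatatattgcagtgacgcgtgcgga
Sphk1, downstream start: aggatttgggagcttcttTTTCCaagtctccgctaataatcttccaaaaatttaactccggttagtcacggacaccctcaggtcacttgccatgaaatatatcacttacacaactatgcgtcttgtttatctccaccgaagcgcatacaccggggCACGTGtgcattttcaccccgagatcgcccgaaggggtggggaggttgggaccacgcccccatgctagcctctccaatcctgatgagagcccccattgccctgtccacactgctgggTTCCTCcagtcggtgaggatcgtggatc
The Spns2 window holds 1 NFAT and 1 PU.1 match, and these do not overlap. Of the Sphk1 windows shown, the first holds 1 AP-1 and 1 NFAT match, and the second holds 1 NFAT, 1 E-box and 1 PU.1 match. Of all 32851 windows, 7.81% hold the AP-1 motif, 61.3% NFAT, 7.15% the E-box, 28.3% PU.1 and 14.1% MYT1. Among the 14 member windows, AP-1 occurs in 2, NFAT in 11, the E-box in 3, PU.1 in 4 and MYT1 in 1. Sphk1 supplies 5 of these windows, some of them overlapping, so the same site can be counted more than once. By gene, of the 9 members with a window, AP-1 occurs in 1, NFAT in 6, the E-box in 2, PU.1 in 3 and MYT1 in 1. The 2 windows with AP-1 are overlapping windows of Sphk1, and the MYT1 match is in the Sphk1 window furthest upstream, which is not shown. A match is a run of letters and not a binding site, and which start of Sphk1 the cells used was not measured.

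All values below are normalised log2 signals, that is, log2 of the background-subtracted signal minus the 75th percentile of the array. A value of 0 therefore means a signal equal to that percentile. Differences are on the same scale and carry the error (standard error) propagated from the scanner software's estimate for each spot, which covers measurement within an array. For bright spots that estimate is close to a fixed share of the signal, so most differences between 2 arrays carry an error near 0.20. Replicate spots of probes well above background gave a smaller SD for such a difference, 0.045 to 0.056. With 1 array per group there is no replicate check, so the differences are given without a test or p-value. A difference of at least 2-fold was used as a criterion of size. Between 59.0% and 63.2% of spots were well above background, and no spot was saturated. There were 300 probes printed 10 times. Those whose kept spots were all well above background had a median SD between spots of 0.031 to 0.042, which leaves out dim probes. Of the 10 genes, 7 were well above background on all 4 arrays, S1pr3 on 3 of them, and Sgpp2 and S1pr4 on none.

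The labels of cell type were set against marker lists. All 10 osteoclast markers were well above background in both osteoclast samples, against 9 of 10 in LysM-St18flox macrophages and 8 of 10 in wild-type macrophages, and each was higher in osteoclasts. All 10 macrophage markers were well above background on every array. Of other cell types, 4 to 5 of 8 endothelial, 3 to 4 of 7 lymphocyte, 2 to 3 of 7 stromal, 1 to 2 of 5 erythroid, 1 to 2 of 5 platelet, 1 to 2 of 5 mast cell and all 6 named neutrophil markers were well above background. Of all 22899 named genes, 13668 were well above background on every array and 15828 on at least 1. Such counts alone therefore do not show that these cells were present. St18 was at 1.12 in LysM-St18flox osteoclasts and 1.55 in wild-type osteoclasts, and at -1.52 in LysM-St18flox macrophages and 0.30 in wild-type macrophages. Another St18 probe was dim, at -4.60 in LysM-St18flox osteoclasts, the one sample where it passed background, and -5.66 in wild-type osteoclasts, so the probes differ in direction between genotypes. Where they lie relative to the floxed part is not given, so these values do not check the deletion.

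**Figure D1:**
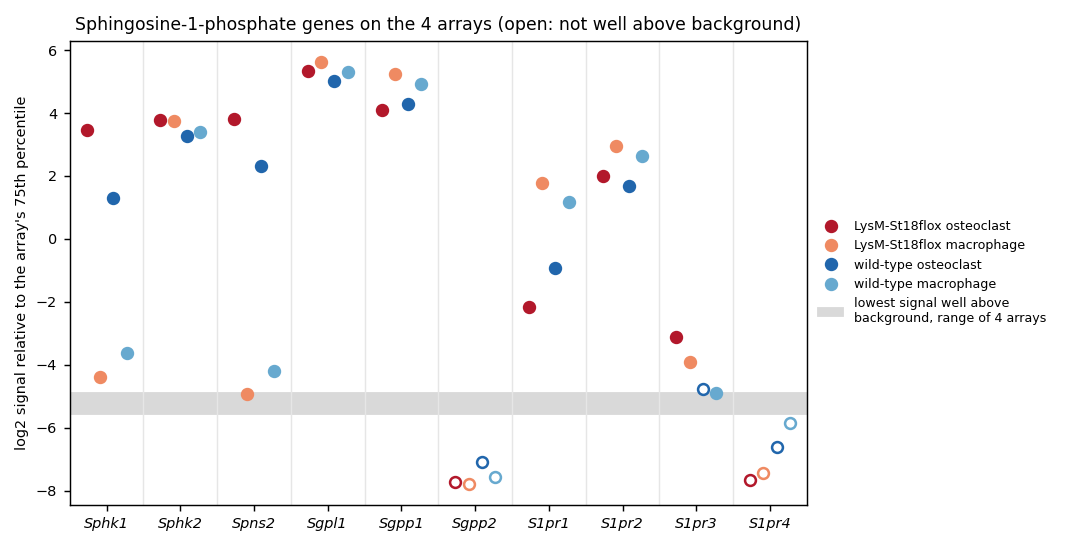
Normalised log2 signal (y axis) of the 10 genes (x axis) on each of the 4 arrays, 1 point per array; open points are not well above background, and the grey band spans the lowest signals well above background. Sphk1 and Spns2 are high in both osteoclast samples and lie near the band in both macrophage samples, S1pr1 runs the other way, and Sgpp2 and S1pr4 lie below the band.

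The comparison of osteoclasts with macrophages asks how the pathway differs after RANKL. In both genotypes osteoclasts had far higher levels of the kinase Sphk1 and the exporter Spns2, and a lower level of the receptor S1pr1. The second kinase, Sphk2, and the lyase Sgpl1 differed by at most 1.22-fold between the cell types. In a whole culture, a lower share of cells that express a gene and less of its RNA per cell cannot be told apart. Of the 10 genes, 8 were measured in each genotype. In LysM-St18flox, 4 of the 8 differed by at least 2-fold (Spns2, Sphk1, Sgpp1 and S1pr1). This stands beside 23.2% of the 15578 genes measured (11% higher and 12.2% lower). In the wild type, 3 of the 8 did (Spns2, Sphk1 and S1pr1), beside 12.8% of the 14958 genes measured (5.62% higher and 7.21% lower). The median difference of the members with a value was -0.11 in LysM-St18flox cells and -0.28 in wild-type cells, beside -0.02 and 0.00 over all genes measured.

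Sphk1, the kinase that growth factors and cytokines are known to induce, was at 3.45 in LysM-St18flox osteoclasts and -4.39 in LysM-St18flox macrophages, and at 1.30 in wild-type osteoclasts and -3.61 in wild-type macrophages. Both osteoclast samples lay far above both macrophage samples. The difference was 7.84 ± 0.25 in LysM-St18flox cells and 4.91 ± 0.23 in wild-type cells, or 229-fold and 30.0-fold. It ranked 19th highest of 15571 genes in LysM-St18flox and 36th of 14731 in the wild type. Sphk2, the nuclear and mitochondrial isoform, was at 3.79 in LysM-St18flox osteoclasts, 3.74 in LysM-St18flox macrophages, 3.28 in wild-type osteoclasts and 3.38 in wild-type macrophages. Its difference between cell types was 0.05 ± 0.20 in LysM-St18flox cells and -0.11 ± 0.20 in wild-type cells, within the scanner software's error. The direction in LysM-St18flox flipped under 2 of 9 alternative settings.

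Spns2, the exporter, was at 3.80 in LysM-St18flox osteoclasts and -4.93 in LysM-St18flox macrophages, and at 2.31 in wild-type osteoclasts and -4.18 in wild-type macrophages. As with Sphk1, the cell types were far apart in both genotypes. The difference was 8.73 ± 0.29 in LysM-St18flox cells and 6.49 ± 0.25 in wild-type cells, which ranked 9th of 15571 and 11th of 14731 genes. Before scaling, the macrophage signals of Spns2 were only 38.0 ± 6.55 intensity units in LysM-St18flox cells and 35.0 ± 4.87 in wild-type cells, and those of Sphk1 were 55.2 ± 7.63 and 52.0 ± 6.36. The lowest signal well above background among LysM-St18flox macrophages was 24.5 units and among wild-type macrophages 15.9 units, so the sizes of these differences rest on dim signals. With the normexp background correction, the difference of Spns2 was 7.24 in LysM-St18flox cells and 4.93 in wild-type cells, and that of Sphk1 was 6.72 and 3.86.

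The enzymes that remove the lipid did not share that pattern. Sgpl1, the lyase, was at 5.34 in LysM-St18flox osteoclasts, 5.62 in LysM-St18flox macrophages, 5.02 in wild-type osteoclasts and 5.31 in wild-type macrophages. Its difference between cell types was -0.28 ± 0.20 in each genotype, and the second Sgpl1 probe gave -0.23 in LysM-St18flox cells and -0.14 in wild-type cells. Sgpp1, a phosphatase of the endoplasmic reticulum, was at 4.10 in LysM-St18flox osteoclasts and 5.23 in LysM-St18flox macrophages, and at 4.27 in wild-type osteoclasts and 4.93 in wild-type macrophages. Osteoclasts were lower in both genotypes, at -1.13 ± 0.20 in LysM-St18flox cells and -0.66 ± 0.20 in wild-type cells, and the LysM-St18flox difference was under 2-fold (-0.96) when arrays were centred on their medians. Sgpp2, the second phosphatase, was not well above background on any array, with signals of 3.34 to 5.74 intensity units.

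Among the receptors, S1pr1, which couples to Gi and promotes migration, was at -2.15 in LysM-St18flox osteoclasts and 1.76 in LysM-St18flox macrophages, and at -0.92 in wild-type osteoclasts and 1.17 in wild-type macrophages. Both macrophage samples were above both osteoclast samples. S1pr1 was 15.1-fold lower in LysM-St18flox osteoclasts (-3.91 ± 0.21) and 4.26-fold lower in wild-type osteoclasts (-2.09 ± 0.21), the 69th lowest of 15571 and the 218th lowest of 14731 genes. S1pr1 is also a gene of endothelium and lymphocytes. The summed signal of the 7 lymphocyte markers, in units of the 75th percentile, was 0.987 in LysM-St18flox osteoclasts and 2.23 in LysM-St18flox macrophages, and 0.887 in wild-type osteoclasts and 1.86 in wild-type macrophages. Cd79a and Cd3g were not well above background on any array, and Cd79b (-3.29 in LysM-St18flox cells and -2.23 in wild-type cells) was the member that fell. The 8 endothelial markers summed to 5.97 and 6.93 in LysM-St18flox osteoclasts and macrophages, and to 5.77 and 6.08 in wild-type osteoclasts and macrophages, with Tek, Emcn and Cldn5 not well above background on any array. Of the macrophage markers, 7 of 10 were at least 2-fold lower in LysM-St18flox osteoclasts and 4 of 10 in wild-type osteoclasts, with medians of -1.78 and -0.95. Over all genes measured, 12.2% were at least 2-fold lower in LysM-St18flox osteoclasts and 7.21% in wild-type osteoclasts. The part of these markers' cells in the S1pr1 result was not tested.

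S1pr2, which couples to G12/13 and restrains migration, was at 1.99 in LysM-St18flox osteoclasts and 2.96 in LysM-St18flox macrophages, and at 1.69 in wild-type osteoclasts and 2.65 in wild-type macrophages. Its difference was close to the 2-fold criterion without reaching it, at -0.97 ± 0.20 in LysM-St18flox cells and -0.95 ± 0.20 in wild-type cells. Under other scalings it reached -1.05 in LysM-St18flox cells and -1.02 in wild-type cells. S1pr3 was at -3.11 in LysM-St18flox osteoclasts and -3.90 in LysM-St18flox macrophages, a difference of 0.79 ± 0.23. In the wild type S1pr3 was not well above background in osteoclasts (28.6 ± 6.40 intensity units) and dim in macrophages (21.2 ± 4.41), so no fold is given. S1pr4, a receptor of lymphoid and myeloid cells, had signals of 5.24 to 11.1 intensity units and was not well above background on any array.

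**Figure D2:**
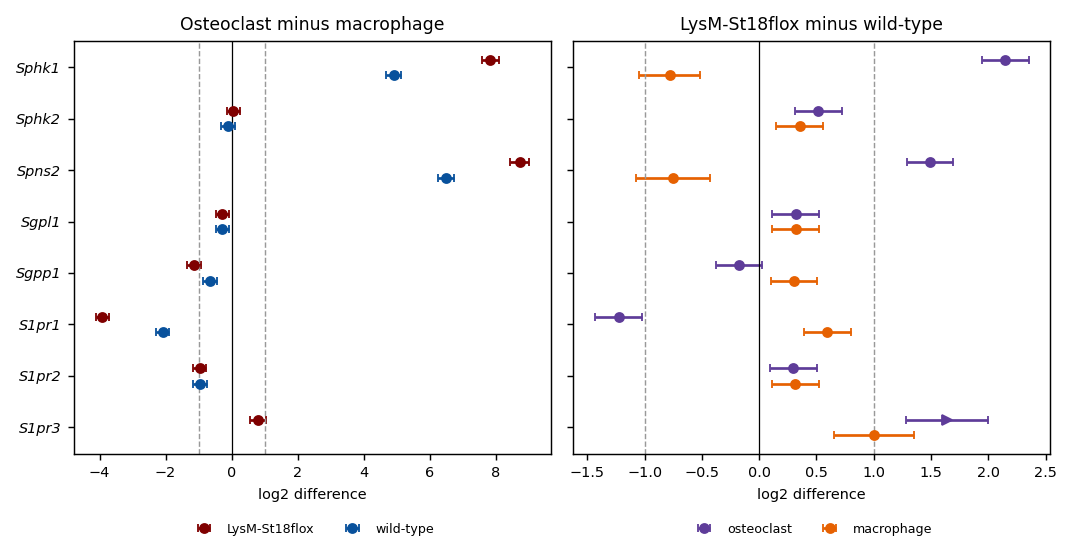
Log2 difference (x axis) of the 8 genes measured (y axis), between osteoclasts and macrophages of each genotype (left) and between LysM-St18flox and wild-type cells of each type (right). Bars are the scanner software's error within an array, and dashed lines mark 2-fold. The triangle is S1pr3 between osteoclasts, where the wild-type signal was not well above background. S1pr3 has no value for the wild-type cells on the left. On the right Spns2, Sphk1 and S1pr1 have opposite signs in the 2 cell types and the widest gaps. Sgpp1 also has opposite signs there, with a small gap.

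The comparison of LysM-St18flox with wild-type cells asks how the arrays of the 2 genotypes differ. With 1 culture and 1 array per group, genotype cannot be told apart from mouse, culture or array. In osteoclasts, LysM-St18flox cells had more Sphk1, Spns2 and S1pr3 and less S1pr1 than wild-type cells. In osteoclasts 4 of the 8 measured members (Sphk1, Spns2, S1pr3 and S1pr1) differed by at least 2-fold. This stands beside 7.53% of the 15037 genes measured (3.71% higher and 3.82% lower). Sphk1 was higher by 2.15 ± 0.20 (4.43-fold, 51st of 14612 genes) and Spns2 by 1.49 ± 0.20 (2.81-fold). S1pr1 was 2.34-fold lower (-1.23 ± 0.21), and the difference was just under 2-fold (-0.98) when arrays were centred on their medians. The osteoclast markers moved with the genotype too: 8 of 10 were at least 2-fold higher in LysM-St18flox osteoclasts, with a median of 1.20, and their summed signal in units of the 75th percentile was 989 in LysM-St18flox osteoclasts and 768 in wild-type osteoclasts. Their part in the Sphk1, Spns2 and S1pr1 results was not tested. S1pr3 was 3.12-fold higher (1.64 ± 0.36), a value that rests on a wild-type signal not well above background. With normexp the S1pr3 difference was 0.54.

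Between macrophages of the genotypes, 1 of the 8 measured members, S1pr3, differed by 2-fold. This stands beside 6.25% of the 15297 genes measured (3.27% higher and 2.98% lower). S1pr3 was at -3.90 in LysM-St18flox macrophages and -4.91 in wild-type macrophages, 2-fold higher with an error of 0.35 on the log2 scale, and the log2 difference was 0.03 with normexp. S1pr1 was higher by 0.59 ± 0.20 in LysM-St18flox macrophages. Sphk1 (-0.78 ± 0.27) and Spns2 (-0.75 ± 0.32) were lower after scaling. Of 9 measured osteoclast markers, 2 were at least 2-fold lower and none higher in LysM-St18flox macrophages (median 0.01), and of 10 macrophage markers 2 were higher and none lower (median 0.19). The part of these markers in the Sphk1, Spns2 and S1pr1 values was not tested. The unscaled signals of both genes, given above, differed by less than their errors between the macrophage arrays, while the 75th percentile was 1159 units on the LysM-St18flox array and 635 on the wild-type array.

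Sphk2, Sgpl1 and S1pr2 were 1.23-fold to 1.43-fold higher in LysM-St18flox cells of both types than in wild-type cells. Sphk2 differed by 0.51 ± 0.20 in osteoclasts and 0.35 ± 0.20 in macrophages, Sgpl1 by 0.32 ± 0.20 in each, and S1pr2 by 0.30 ± 0.20 in osteoclasts and 0.32 ± 0.20 in macrophages. Sgpp1 was at -0.18 ± 0.20 in osteoclasts, where its sign flipped under centring on the median (0.07), and at 0.30 ± 0.20 in macrophages. Centring on the median shifted the median of all genes to 0.24 in the osteoclast comparison, and the genes past 2-fold were then 1000 higher and 314 lower, against 558 and 575. With quantile normalisation they were 646 and 393, and 432 and 263 were counted in the authors' deposited table. The split turned the other way, to 479 higher and 675 lower, with the percentile taken over probes well above background on every array.

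The difference between cell types was wider in LysM-St18flox than in the wild type for Sphk1 by 2.93 ± 0.34, for Spns2 by 2.24 ± 0.38, and for S1pr1 by -1.82 ± 0.29. These 3 of the 7 members measured in this way passed 2-fold in this difference of differences. Of the 13668 genes that were well above background on every array, 7.92% did (3.22% higher and 4.7% lower). Sphk1 ranked 12th and Spns2 35th from the top, and S1pr1 87th from the bottom. Sphk2 (0.16 ± 0.29), Sgpl1 (0.00 ± 0.29) and S1pr2 (-0.02 ± 0.29) had values within the error, and Sgpp1 was at -0.48 ± 0.29. Of the 8 osteoclast markers measured in this way, 4 were wider by at least 2-fold, with a median of 0.97. A wider response on the LysM-St18flox arrays was common among genes whose mean response over the 2 genotypes was at least 2-fold. Of 870 genes whose mean response was at least 2-fold higher, 90.9% were wider in LysM-St18flox, by a median of 0.76, and the excess of Sphk1 was passed by 10 of them and that of Spns2 by 29. Among the 58 genes with a mean response at least 16-fold higher, the median excess was 1.51, and 6 passed Sphk1 and 17 passed Spns2. Of 1212 genes at least 2-fold lower, 84.0% were wider, by a median of 0.58, and 59 passed S1pr1.

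**Figure D3:**
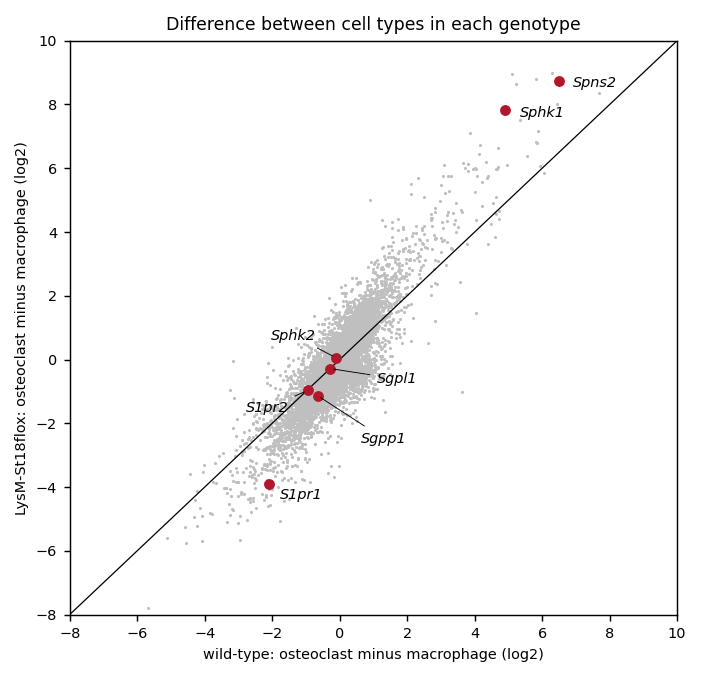
Osteoclast minus macrophage difference (log2) in LysM-St18flox cells (y axis) and wild-type cells (x axis) for the 13668 genes that were well above background on every array (grey), with the 7 sphingosine-1-phosphate genes among them in red; the line marks equal differences. Spns2 and Sphk1 lie at the upper end above the line, S1pr1 lies in the lower part below it, and the other 4 lie near the middle.

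The profiles of the 7 genes over the 4 arrays were compared by the distance between log2 values centred on each gene's own mean. Of the 13667 other genes, only 6 were nearer to Spns2 than Sphk1 was (distance 1.32), and 7 were nearer to Sphk1 than Spns2 was. Outside the pathway, the genes nearest to Spns2 were Cyp2s1 (0.59), a cytochrome P450, Dcstamp (0.83), needed for cell fusion, and Ctsk (0.98), the main protease of bone resorption. Those nearest to Sphk1 were Ocstamp (0.71), a fusion gene, Plxna4 (0.87), a semaphorin receptor, and P2rx5 (0.94), an ATP-gated channel. Spns2 and Sphk1 were among only 58 of the 13668 genes whose mean response was at least 16-fold higher in osteoclasts.

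S1pr1 was nearest to Stab1 (0.13), a scavenger receptor, Pou2f2 (0.13), a transcription factor, and Pcdhac2 (0.26), a protocadherin. Sgpp1 and S1pr2 were near each other (0.34), with 476 genes nearer to Sgpp1 and 268 nearer to S1pr2. Sgpp1 was nearest to Blvrb, Abhd4 and Hacl1 (0.03 to 0.04), and S1pr2 to Nampt, Cxcl1 and Dock6 (0.05 to 0.08). Sphk2 was nearest to Arpc4, Phkg2 and Metap1d (0.02 to 0.04), and Sgpl1 to Mtmr4, Sh3pxd2b and Zfp558 (0.03 to 0.04).

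The genes that supply and consume sphingosine were read from 3 lists. Most stayed within 2-fold between cell types, and their counts stand beside 23.2% of all genes past 2-fold in LysM-St18flox cells and 12.8% in wild-type cells. Of 15 measured genes of ceramide synthesis, none rose and 1 fell in each genotype, Cers4, a ceramide synthase, at -2.93 in LysM-St18flox cells and -1.60 in wild-type cells. Their median was -0.10 in LysM-St18flox cells and -0.04 in wild-type cells. Of 4 measured ceramidases, Asah2, the neutral ceramidase, was 3.34-fold lower in LysM-St18flox osteoclasts and 2.01-fold lower in wild-type osteoclasts. Acer2, the alkaline ceramidase of the Golgi, was higher in LysM-St18flox osteoclasts, at 1.48, and was at 0.35 in the wild type. Between genotypes Acer2 was higher by 1.46 in LysM-St18flox osteoclasts. In wild-type osteoclasts Acer2 was dim, at -4.43 beside a lowest signal well above background of -4.89. The medians of the ceramidases were -0.09 and -0.06. Of 17 genes of ceramide and sphingolipid turnover, 2 rose and 4 fell in LysM-St18flox cells and none rose and 2 fell in wild-type cells, with medians of -0.24 and -0.47. In the wild type that count is close to the share over all genes. Galc, which degrades galactosylceramide, was at -2.06 and -1.47, Smpdl3a at -1.50 and -1.13, and Smpd1, the acid sphingomyelinase, at 1.43 in LysM-St18flox. Smpd3, the neutral sphingomyelinase, was at least 4.87-fold lower in LysM-St18flox osteoclasts. Sgms2, a sphingomyelin synthase (1.24), and Smpd1 (1.01) were higher in LysM-St18flox osteoclasts than in wild-type ones.

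Other genes that handle the lipid included 1 that rose in both genotypes. Plpp1, which dephosphorylates lipid phosphates at the cell surface, was higher in osteoclasts by 3.48 in LysM-St18flox cells and 1.26 in wild-type cells, and its second probe gave 3.90 and 1.45. Abca1, a lipid exporter, was at -1.71 in LysM-St18flox osteoclasts against macrophages, and was higher by 1.61 in LysM-St18flox macrophages than in wild-type ones. Mfsd2b, the exporter of red cells and platelets, stayed within 2-fold, at 0.07 in LysM-St18flox cells and -0.14 in wild-type cells, and S1pr5, the remaining receptor of the family, was not well above background on any array. Of the 9 measured genes 1 rose and 1 fell in LysM-St18flox cells and 1 rose in wild-type cells, close to the shares over all genes (23.2% and 12.8%), with medians of -0.33 and -0.14.

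Of 17 measured genes of receptor coupling and control, 1 rose and 5 fell in LysM-St18flox osteoclasts, beside 11% higher and 12.2% lower over all genes. Of 16 measured in the wild type, none rose and 5 fell, beside 5.62% higher and 7.21% lower over all genes. The list counts are small, and lower calls outnumbered higher ones over all genes too. The list's median differences were -0.31 and -0.33. Klf2, a transcription factor known to induce S1pr1 in lymphocytes, was at -1.77 in LysM-St18flox cells and -1.96 in wild-type cells. Arrb2, an arrestin that ends receptor signalling, was at -1.96 and -1.16, and Gna12, a G protein subunit to which S1pr2 couples, at -1.69 and -1.26. Rgs1, which shortens G protein signals, was at -1.34 and -1.21. Rac2, a GTPase of blood cells, was at 1.35 in LysM-St18flox osteoclasts. In osteoclasts, Rac2 (1.08) was higher and Gna12 (-1.14) lower in LysM-St18flox cells than in wild-type ones.

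**Figure D4:**
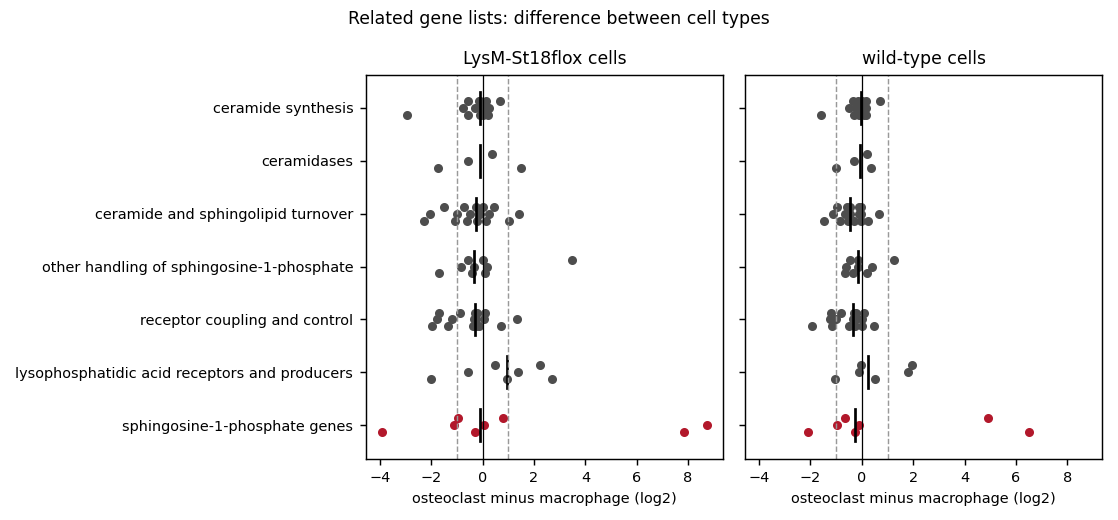
Osteoclast minus macrophage difference (log2, x axis) of the measured genes of 6 related lists and of the sphingosine-1-phosphate genes (y axis), in LysM-St18flox cells (left) and wild-type cells (right). Each point is a gene, vertical bars are medians and dashed lines mark 2-fold; Spns2 and Sphk1 are the 2 red points at the far right, beyond every gene of the other lists.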

How the data were processed

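Total RNA (100 ng) from 4 cultures was labelled with Cy3. Spots were quantified in Feature Extraction 11.0.1.1 (submitters' processing notes). Each deposited scanner file lists spots with, per the file headers, an intensity already processed (background-subtracted, detrended, not scaled between arrays), its error, and flags of other kinds. A further table from the authors has log2 levels of 30909 probes, 7 of the 10 genes among them. Its columns have nearly equal distributions, as after quantile normalisation, and the sources used here do not say how it was made.

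From these files, log2 signals were averaged over the spots of a probe, without control and outlier spots, and scaled by the 75th percentile over probes. A gene was its brightest probe, named through RefSeq accessions and a GRCm38.p6 gene table. The header names another build, so no probe positions are given. A gene was measured where at least 1 of the 2 arrays was well above background. Where only 1 was, the other array's value was the gene's signal or the array's lowest signal well above background, whichever was higher. In the latter case the difference is a bound. The number of arrays limits the precision. Members, lists, motifs and comparisons were chosen with earlier results of these data known. All members are named, with up to 4 genes past 2-fold per list and comparison and the 3 nearest profiles. Mfsd2b and S1pr5 were added for their roles, with their values known. The lists were 6 of related genes and 9 of cell type markers. Python 3.11.15, pandas 2.3.3 and limma 3.58.1 (normexp, offset 50, on median signals) were used. The calculations were tested on simulated data with changes planted only in bright probes, so accuracy for dim signals was not tested.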

Additional observations from a re-analysis of the deposited data

Results flagged for a closer look

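Sphk1, Spns2 and S1pr1 had a genotype difference of opposite direction in the 2 cell types, with at least 2-fold between them. The genotype difference of Sphk1 was 2.15 in osteoclasts and -0.78 in macrophages, 2.93 apart. For Spns2 it was 1.49 in osteoclasts and -0.75 in macrophages, 2.24 apart. For S1pr1 it was -1.23 in osteoclasts and 0.59 in macrophages, so that the value in osteoclasts minus that in macrophages was -1.82. Each value rests on 1 array per group, and these differences between cell types were not tested. The macrophage signals of Sphk1 and Spns2 were dim on both arrays. Before scaling, Sphk1 was at 55.2 units in LysM-St18flox macrophages and 52.0 in wild-type ones, and Spns2 at 38.0 and 35.0. The lower values of these 2 genes in LysM-St18flox macrophages therefore appear only after scaling.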

How the results depend on the processing

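No paired analysis was possible because each group had 1 array. The 9 alternatives were normexp background correction, 3 other scalings, the authors' table, no filter or a stricter filter on dim probes, the median over probes, and flagged spots kept. Of 338 recomputed differences of the members, 330 kept their side of 2-fold, 4 dropped below it, 4 passed it, and none that was past 2-fold changed sign. The filter settings could not move a member well above background on the arrays compared, nor could the median over probes where 1 probe reads it. That part of the agreement was fixed in advance. The genes that dropped below were Sgpp1 and S1pr1 with median centring and S1pr3 with normexp in both genotype comparisons, and the one that passed was S1pr2. Of the differences under 2-fold, 9 changed sign, those of Sphk2, Sgpl1, Sgpp1 and S1pr2. The count of members past 2-fold between macrophages of the 2 genotypes was 1, against 0 with normexp and 0 in the authors' table, which lacks S1pr3, and 2 with no filter. Counts over all genes moved more. With no filter on dim probes they were 2985 against 1918 between wild-type cell types, 2096 against 956 between macrophages, 2331 against 1133 between osteoclasts and 3347 against 1082 for the difference of differences. With normexp they were 557 between macrophages, 536 between osteoclasts and 700 for the difference of differences, and the authors' table gave 695 between osteoclasts. With median centring the genes past 2-fold were 2206 higher and 1522 lower between LysM-St18flox cell types, against 1712 and 1897, and 810 higher and 363 lower for the difference of differences, against 440 and 642. Signals near background limit the sizes for Spns2 and Sphk1 in macrophages and for S1pr3. Among the related genes they also limit those for Acer2, Lpar2 and Enpp2.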

Other observations

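Genes of lysophosphatidic acid, the related lipid messenger, were also read between cell types, beside 23.2% of all genes past 2-fold in LysM-St18flox cells and 12.8% in wild-type cells. Of 7 measured genes in LysM-St18flox 3 rose and 1 fell in osteoclasts, and of 6 in the wild type 2 rose and 1 fell, with medians of 0.96 and 0.25. The receptor gene Lpar1 was higher in osteoclasts by 2.71 in LysM-St18flox cells and 1.97 in wild-type cells. Enpp2, which encodes autotaxin, the enzyme that makes lysophosphatidic acid, was higher by 2.23 in LysM-St18flox cells and at least 3.45-fold higher in wild-type cells. Lpar6 was lower, at -2.03 and -1.03. Lpar2 was at 1.39 in LysM-St18flox cells and -0.03 in wild-type cells, and was higher by 1.90 in LysM-St18flox osteoclasts than in wild-type ones. Some of these signals were dim. Lpar2 was at -4.67 in wild-type osteoclasts, where the lowest signal well above background was -4.89. Enpp2 was at -5.37 in LysM-St18flox macrophages, where the lowest such signal was -5.56. Of the 6 genes of this list measured between macrophages of the 2 genotypes, none reached 2-fold, beside 6.25% of all genes measured.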
